A study of Homo sapiens with 6 samples.

Results

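The Ndc80 complex is the rod of 4 protein subunits with which a kinetochore, the protein assembly on each centromere, holds the microtubules of the mitotic spindle. NDC80, also called Hec1, and NUF2 form the end that binds the microtubule. SPC24 and SPC25 form the opposite end, which docks on the Mis12 complex and on CENP-T at the centromere. When microtubules are removed, unattached kinetochores recruit the spindle checkpoint through this network and the cell stays arrested in mitosis. The 4 subunit genes were taken by their symbols from the deposited table, where SPC24 (chromosome 19), SPC25 (chromosome 2), NDC80 (chromosome 18) and NUF2 (chromosome 1) each had 1 of the 37879 targets, of which 25233 carry a symbol. The genes were chosen by function, although SPC24 was already known as a transcript that the study had selected for further work.

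The question of the experiment was which mRNAs co-purify with Staufen1 (Stau1), a protein that binds double-stranded RNA, when cells are held in prometaphase. HEK293T, an established line of human embryonic kidney cells, was transfected either with the empty vector (control IP, 3 arrays) or with plasmids coding for Stau155-FLAG (Stau1 IP, 3 arrays), a tagged isoform that was expressed on top of the cells' own Stau1. All cells received 50 ng/ml nocodazole, an inhibitor of microtubule polymerization, for 15 h according to the labels. The methods of the paper give a longer time for this cell line. All lysates were precipitated with anti-FLAG antibody. RNA from each immunoprecipitation (IP) was read on an Illumina BeadChip, on which many beads carry the same probe. The control IP holds no tagged protein, so it measures the RNA that stays on the antibody gel. Input RNA was not analysed here, so that more copies of an mRNA in the cells and more binding of it to Stau1 cannot be told apart, nor can fewer cells and less RNA per cell. The labels do not say whether the replicates came from separate cultures, so p-values measure only the spread between these arrays.

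Of the markers fixed for the cell line, VIM, KRT18, NEFL and NEFM were detected on all 6 arrays and PAX2 on 1. Detection means a p-value under 0.05 against the negative controls of the array. Of the mitotic markers, CCNB1, PLK1, CDC20 and TOP2A were detected on all 6 arrays and MKI67 on 2 control IP arrays. PTPRC, ALB and HBB, which mark blood and liver cells, were detected on no array, whereas PECAM1 was detected on 6 and COL1A1 on 5, with signals of at most 152. The summed signal of these 5 markers of other cell types lay between 110 and 132 over background on control IP arrays and between 83.9 and 117 on Stau1 IP arrays. STAU1 itself had signals of 2499, 3246 and 2758 in control IPs and 2845, 1857 and 3130 in Stau1 IPs, so its target does not mark the transfected arrays, and whether its probes lie in the expressed insert is not given in the sources used here. Detected targets numbered 11635 on Stau1 IP 2, the fewest, and 12226 to 13054 on the other arrays. The arrays numbered 2 did not lie clearly with their labelled groups, and for control IP 2 the margin was small. Over the 9884 targets detected on all arrays, Stau1 IP 2 correlated with Stau1 IPs 1 and 3 at 0.940 and 0.943, and with control IPs 1, 2 and 3 at 0.962, 0.954 and 0.977. Control IP 2 correlated with Stau1 IPs 1 and 3 at 0.983 and 0.984, and with control IPs 1 and 3 at 0.977 and 0.982. Whether the labels of these 2 arrays were exchanged was not tested. The groups were kept as labelled, so every fold change over all 6 arrays follows the labels, and the main comparisons are also given without these 2 arrays. Leaving them out was decided with the values known, so the p-values of the remaining 4 arrays describe those arrays and are not independent support.

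SPC24 varied most between arrays of all 4 transcripts, and it was the only one of the 4 transcripts with a higher mean in the Stau1 IPs. Its deposited signal, in arbitrary units and with the standard error between beads, was 1248 ± 39.0 on control IP 1, 5922 ± 157 on control IP 2 and 1978 ± 72.6 on control IP 3. It was 7168 ± 274 on Stau1 IP 1, 1869 ± 42.5 on Stau1 IP 2 and 8238 ± 266 on Stau1 IP 3. The arrays thus fell into a high and a low set that crossed the labels, with control IP 2 among the high and Stau1 IP 2 among the low. Within the control IPs the signal over background differed by up to 4.99-fold, and within the Stau1 IPs by up to 4.58-fold, while the standard error between beads was at most 3.87% of the signal over background.

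**Figure D1:**
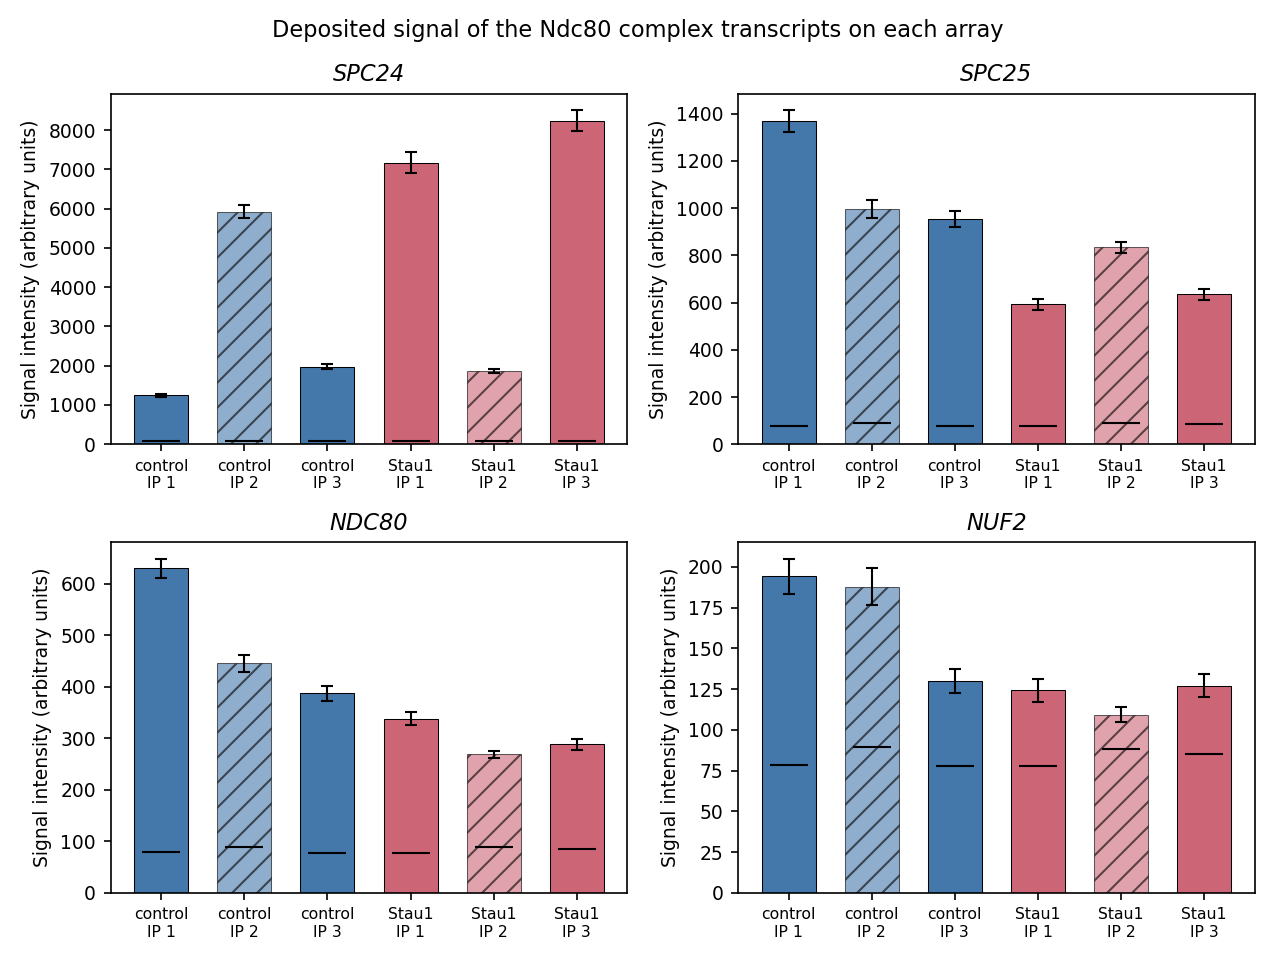
Deposited signal intensity (arbitrary units, not background corrected) of SPC24, SPC25, NDC80 and NUF2 on each of the 6 arrays, with control IPs in blue, Stau1 IPs in red and the arrays numbered 2 hatched. Error bars are the standard error between beads of that array and the short black lines mark its background. SPC24 was high on control IP 2, Stau1 IP 1 and Stau1 IP 3, whereas NDC80 and NUF2 were highest on control IP 1.

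After normalization SPC24 had a level of 10.41, 12.39 and 10.98 (log2 scale) on control IPs 1, 2 and 3, and of 12.82, 10.88 and 12.89 on Stau1 IPs 1, 2 and 3. The groups overlapped. Control IPs had a mean of 11.26 ± 1.02 (SD, n = 3), against 12.20 ± 1.14 (SD, n = 3) for the Stau1 IPs. In limma the log2 fold change was 0.94 (SE 0.75, 95% interval -0.93 to 2.81) with an adjusted p = 0.819. A two-sided exact permutation test over the arrays gave p = 0.3, and 3 arrays against 3 cannot go below 0.1. The difference was smaller than the spread within the groups, although the interval includes the 2.5-fold threshold of the methods. Of the 9884 targets detected on all arrays, 99.5% had a spread within the groups no larger than that of SPC24. The third highest and the fourth highest array of SPC24 were 1.41 apart on the log2 scale, a gap that 99.6% of those targets did not exceed.

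The fold change of SPC24 changed most when both arrays numbered 2 were left out. On the log2 scale control IP 2 lay 1.70 above the mean of control IPs 1 and 3, and differed by -0.47 from the mean of Stau1 IPs 1 and 3. Stau1 IP 2 differed by -1.97 from the mean of the other Stau1 IPs, and lay 0.19 above the mean of control IPs 1 and 3. Without both arrays, SPC24 averaged 10.69 ± 0.41 (SD, n = 2) in control IPs, against 12.86 ± 0.06 (SD, n = 2) in Stau1 IPs. On the remaining arrays limma gave a log2 fold change of 2.16 (SE 0.20, 95% interval 1.62 to 2.70), which is 4.48-fold, and it passed (adjusted p = 0.0148 from limma). With these 4 arrays 3.64% of all targets passed in the same direction, against 0% with all 6. Leaving out control IP 2 alone gave a log2 fold change of 1.51 and leaving out Stau1 IP 2 alone gave 1.60, and neither passed (adjusted p = 0.696 and 0.317 from limma). The value was smaller without control IP 1 (0.51) and without Stau1 IP 3 (0.59).

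SPC25, the dimer partner of SPC24, was lower in the Stau1 IPs by its mean and did not pass the test. Its signal was 1368 ± 47.1, 996 ± 38.7 and 954 ± 32.5 on control IPs 1, 2 and 3, and 594 ± 22.9, 834 ± 21.6 and 635 ± 23.8 on Stau1 IPs 1, 2 and 3 (standard error between beads). All control IP signals lay above all Stau1 IP signals. After normalization the groups overlapped slightly, with 9.81 on control IP 2 and 9.85 on Stau1 IP 2 (log2). The mean level was 10.10 ± 0.38 (SD, n = 3) in control IPs, against 9.41 ± 0.39 (SD, n = 3) in Stau1 IPs. This is a log2 fold change of -0.69 (SE 0.27, 95% interval -1.36 to -0.03, adjusted p = 0.549 from limma). Stau1 IP 2 lay 0.67 above the mean of the other Stau1 IPs, and control IP 2 differed by -0.44 from the mean of the other control IPs, so that SPC25 deviated on these arrays in the sense opposite to SPC24. Without them the log2 fold change was -1.06 (SE 0.20, adjusted p = 0.0638 from limma), still short of the threshold.

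NDC80, the subunit that carries the main microtubule-binding surface, had signals of 630 ± 18.7, 446 ± 16.1 and 387 ± 14.7 on control IPs 1, 2 and 3. On Stau1 IPs 1, 2 and 3 they were 338 ± 12.0, 269 ± 6.53 and 288 ± 10.4. Every control IP array lay above every Stau1 IP array, before and after normalization. Control IPs averaged 8.96 ± 0.45 (SD, n = 3, normalized log2) and Stau1 IPs 8.35 ± 0.19 (SD, n = 3). The log2 fold change of -0.61 (SE 0.24, 95% interval -1.20 to -0.01) did not pass (adjusted p = 0.561 from limma). Control IP 1 stood highest, at 9.48 against 8.65 and 8.75 on the other control IPs, and without it the log2 fold change was -0.35 (adjusted p = 0.748 from limma). Without the arrays numbered 2 it was -0.81 (adjusted p = 0.237 from limma).

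NUF2, the partner of NDC80 in the microtubule-binding dimer, lay close to background and was detected on 2 of 3 arrays of either group. Its signal was 194 ± 10.9, 188 ± 11.5 and 130 ± 7.24 on control IPs 1, 2 and 3, and 124 ± 7.19, 109 ± 4.62 and 127 ± 7.17 on Stau1 IPs 1, 2 and 3. The groups did not overlap, but control IP 3 and Stau1 IP 3 differed by less than their standard errors between beads. Over a background of 77.6 to 89.6 these signals left 20.9 to 116, and the standard error between beads reached 22.1% of that. Control IPs averaged 7.66 ± 0.25 (SD, n = 3, normalized log2) and Stau1 IPs 7.25 ± 0.09 (SD, n = 3), a log2 fold change of -0.41 (SE 0.13, 95% interval -0.74 to -0.08, adjusted p = 0.449 from limma). The transformation acts as a logarithm of the signal plus a constant, so it understates differences of transcripts as dim as NUF2. Without the arrays numbered 2 the log2 fold change was -0.38 (adjusted p = 0.412 from limma).

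Of the 4 subunits, 0 passed the adjusted threshold in limma with all arrays, where 0.00264% of all targets did, namely TTC3. SPC25, NDC80 and NUF2 had an unadjusted p under 0.05 in limma, as did 4.72% of all targets in that direction, and 0 of the 4 did by the methods' t-test. Groups that did not overlap, with the Stau1 IPs lower, were found for 2 of the 4 subunits, NDC80 and NUF2, and for 7.30% of all targets. The shares of all targets given here include 22528 that were detected on no array, whereas 3 of the 4 subunits were detected on every array. The methods asked for a fold change over 2.5 and a p under 0.05 without adjustment, and by this threshold 0 of the 4 were enriched, against 0.00264% of all targets, namely DLST. The median log2 fold change was -0.51 over the 4 subunits and 0.01 over all targets. Without the arrays numbered 2, SPC24 was the one subunit enriched by these limits with the p from limma, as were 0.631% of all targets. With these 4 arrays the groups of SPC25, NDC80 and NUF2 were apart and lower (23.0% of all targets were) and those of SPC24 apart and higher (as for 23.0% of all targets).

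**Figure D2:**
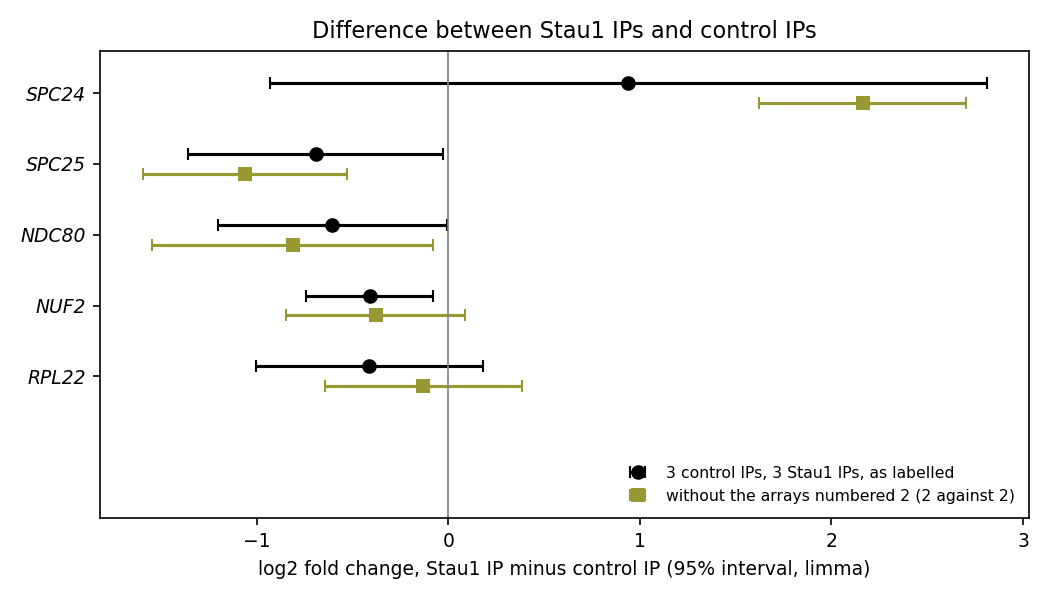
Log2 fold change of the 4 subunits and of RPL22 (horizontal axis, Stau1 IP minus control IP) with the 95% interval from limma, for all arrays as labelled (black circles) and without the arrays numbered 2 (squares). The interval of SPC24 runs from -0.93 to 2.81 with all arrays and from 1.62 to 2.70 without these arrays.

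Whether SPC24 departed from its partners was tested on the difference within each array, which a constant shift of an array cannot change. SPC24 minus the mean of SPC25, NDC80 and NUF2 was 1.09, 3.70 and 2.27 on control IPs 1, 2 and 3, and 4.49, 2.40 and 4.70 on Stau1 IPs 1, 2 and 3 (log2). The values overlapped between the groups. It averaged 2.35 ± 1.30 (SD, n = 3) in control IPs, against 3.86 ± 1.27 (SD, n = 3) in Stau1 IPs, and the difference of 1.51 had p = 0.2 by the exact permutation test, two-sided, whose smallest possible value is 0.1. Without control IP 1 the difference was 0.88, and without the arrays numbered 2 it was 2.91, in a design of 2 against 2 that cannot go below p = 0.333 in the exact permutation test. A divergence of SPC24 from the other subunits was thus not shown by the labelled groups.

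RPL22, the ribosomal protein transcript that the study used as a reference in its RT-qPCR, gave a second comparison. SPC24 minus RPL22 was -1.27, 0.80 and -0.16 on control IPs 1, 2 and 3, and 1.48, 0.27 and 1.68 on Stau1 IPs 1, 2 and 3 (log2). Control IP 2 lay above Stau1 IP 2, so the groups overlapped. It averaged -0.21 ± 1.03 (SD, n = 3) in control IPs, against 1.14 ± 0.76 (SD, n = 3) in Stau1 IPs, and the difference of 1.35 had p = 0.2 (exact permutation test, two-sided). RPL22 itself differed by -0.41 on the log2 scale (SE 0.24, adjusted p = 0.724 from limma). Without control IP 1 the difference between SPC24 and RPL22 was 0.82. It was 2.29 without the arrays numbered 2, and RPL22 alone had -0.13.

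The transcripts whose levels ran most like those of each subunit over the 6 arrays were taken as the targets with the smallest root mean square difference, after each profile was centred on its own mean. There were 9443 candidates with a symbol that were detected on all arrays. Nearest to SPC24 were CTSB, which encodes the lysosomal protease cathepsin B, at 0.10 (log2), ESPNL, which encodes an espin-like protein, at 0.12, and DFFA, which encodes the inhibitory subunit of the apoptotic DNA fragmentation factor, at 0.12. Each of the 3 was high on control IP 2, Stau1 IP 1 and Stau1 IP 3. CTSB had 8.80, 10.90 and 9.22 on control IPs 1, 2 and 3 and 11.29, 9.17 and 11.26 on Stau1 IPs 1, 2 and 3. Their Pearson correlations with SPC24 were between 0.995 and 0.997 over the 6 arrays, which share the same few samples. High values follow from choosing the nearest of 9443 candidates on these same arrays. Nearest to SPC25 were C20orf191 (now NCOR1P1) at 0.04, RPL7, a protein of the large ribosomal subunit, at 0.05, and C14orf166 (now RTRAF) at 0.06. Nearest to NDC80 were ME1, which encodes cytosolic malic enzyme, SH3GLB1, which encodes endophilin B1, and PPP2R3C, which encodes a regulatory subunit of protein phosphatase 2A, each at 0.09. No other subunit of the complex was among the 3 nearest transcripts of SPC24, SPC25 or NDC80, and NUF2 was not compared because it was not detected on all arrays.

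**Figure D3:**
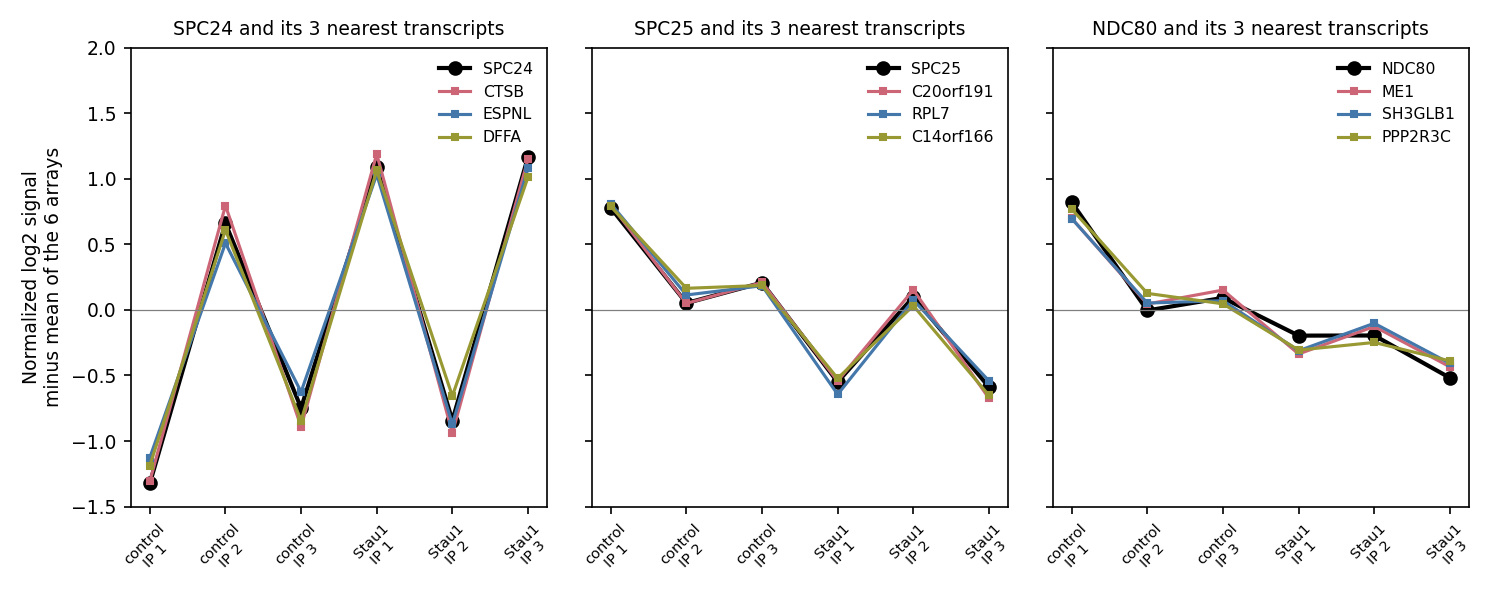
Normalized log2 signal minus the mean of the 6 arrays (vertical axis) on each array (horizontal axis), for SPC24, SPC25 and NDC80 (black) and the 3 transcripts nearest to each (colours). SPC24, CTSB, ESPNL and DFFA were high on control IP 2, Stau1 IP 1 and Stau1 IP 3, whereas SPC25 and NDC80 were highest on control IP 1.

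The partners with which the Ndc80 complex works at the kinetochore were read from the same fit. Of a list of 28 genes, 27 had a target and 23 of these were detected on all arrays. By limma 0 of the 27 passed the adjusted threshold, 8 had an unadjusted p under 0.05 (8.83% of all targets did), and the methods' t-test gave 7 at an unadjusted p under 0.05 (7.80% of all targets) and 0 after adjustment. The log2 fold change was below 0 for 21 of the 27, with a median of -0.23. Among those detected on all arrays it was below 0 for 17 of 23, against 48.9% of all targets detected on all arrays. Without the arrays numbered 2 it was below 0 for 15 of 23, against 53.5%. Groups did not overlap for 8 partners that were lower in the Stau1 IPs (7.30% of all targets were apart and lower) and for 1 that was higher (7.20% of all targets were apart and higher). These shares count every target, also the 22528 detected on no array, so they come from a set unlike the partners.

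In the Mis12 complex, the dock of SPC24 and SPC25, PMF1 was higher in the Stau1 IPs without overlap. Its signal was 445, 838 and 617 on control IPs 1, 2 and 3, and 1320, 805 and 1308 on Stau1 IPs 1, 2 and 3. The signal of control IP 2 was slightly above that of Stau1 IP 2, and the groups separated only after normalization. Its log2 fold change was 0.80 (SE 0.19, adjusted p = 0.309 from limma). DSN1 had a log2 fold change of -0.38, NSL1 one of -0.37 and MIS12 one of -0.20, which was 0.12 without the arrays numbered 2. In the Knl1 complex, the platform of the checkpoint, ZWINT had -0.003 and CASC5 (now KNL1) was detected on no array.

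In the Ska complex, which couples the Ndc80 complex to moving microtubule ends, SKA1 showed the same high and low arrays as SPC24. Its signal was 412, 1240 and 471 on control IPs 1, 2 and 3, and 1660, 486 and 1654 on Stau1 IPs 1, 2 and 3. Its log2 fold change was 0.79 (SE 0.52, adjusted p = 0.773 from limma). SKA2 had the opposite sign, with a log2 fold change of -0.73 (SE 0.41, adjusted p = 0.722 from limma), and C13orf3 (now SKA3) had -0.35. CDT1, a replication licensing factor that also binds the Ndc80 complex in mitosis, had 0.58 (SE 0.31, adjusted p = 0.694 from limma), and 0.85 without the arrays numbered 2.

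With all arrays, the lowest fold changes of the list were those of TTK, BUB1 and SKA2. TTK, the kinase Mps1 that starts checkpoint signaling on the Ndc80 complex, had signals of 757, 848 and 945 on control IPs 1, 2 and 3 and of 438, 300 and 429 on Stau1 IPs 1, 2 and 3. Both arrays numbered 2 lay with their labelled groups here. Its log2 fold change was -1.07 (SE 0.11, adjusted p = 0.114 from limma), the lowest adjusted p of the list. BUB1, the checkpoint kinase that is recruited to Knl1, stood at -0.82 (SE 0.15, adjusted p = 0.211 from limma), and its groups did not overlap either. The groups of C6orf173 (now CENPW, a partner of CENP-T), NEK2, BUB3 and BUB1B were also apart, with log2 fold changes of -0.53, -0.36, -0.34 and -0.23, and an adjusted p between 0.283 and 0.405 from limma. C6orf173 had -0.57 without the arrays numbered 2. AURKB, the kinase that releases wrong attachments by phosphorylating NDC80, had -0.23 (SE 0.33, adjusted p = 0.918 from limma).

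**Figure D4:**
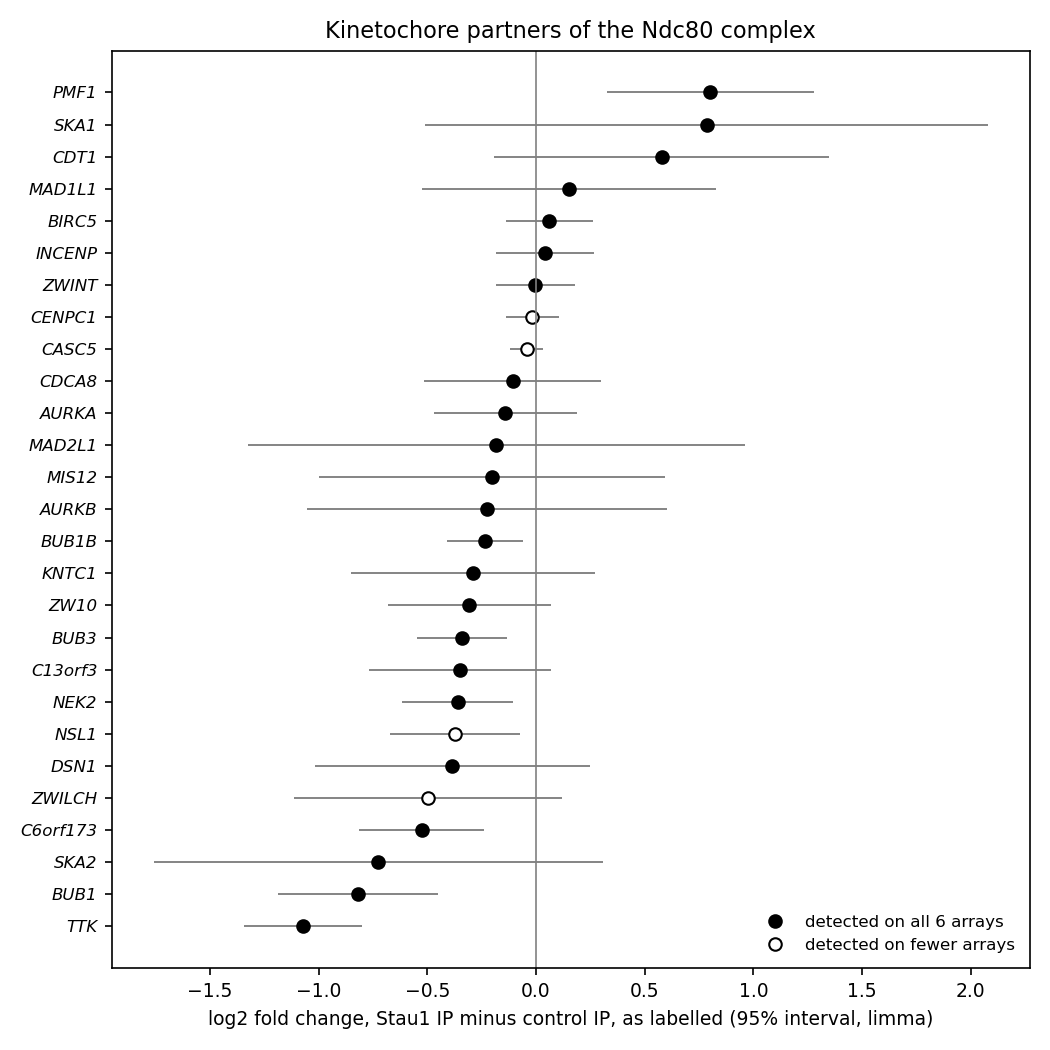
Log2 fold change (horizontal axis, Stau1 IP minus control IP, arrays as labelled) of the 27 kinetochore partners, with 95% intervals from limma, where open circles mark transcripts not detected on all 6 arrays. The values run from -1.07 for TTK to 0.80 for PMF1, and 21 of the 27 lie below 0.

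Without the arrays numbered 2, 2 of the 27 partners passed as higher in the Stau1 IPs (3.64% of all targets did) and 8 as lower (2.60% of all targets did), by limma with adjustment over all targets. The higher ones were SKA1 (log2 fold change 1.64, adjusted p = 0.00578 from limma) and PMF1 (1.07, adjusted p = 0.0257 from limma). The lower ones were SKA2 (-1.34), TTK (-1.12), BUB1 (-0.80), DSN1 (-0.80), AURKB (-0.73), C13orf3 (-0.58), NEK2 (-0.50) and BUB3 (-0.46), with an adjusted p between 0.0132 and 0.0394 from limma. Groups were apart for 17 partners that were lower and for 3 that were higher, in a design of 2 against 2 in which 23.0% of all targets were apart in either direction alone. All targets include 22528 that were detected on no array, whereas 23 of the 27 partners were detected on every array. The median of the 27 was -0.21 with these 4 arrays, against 0.001 over all targets. Leaving out the arrays numbered 2 thus changed the call of 10 partners and of SPC24, and of no other subunit.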

How the data were processed

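RNA from 3 control IPs and 3 Stau1 IPs was measured on 6 Illumina HumanWG-6 arrays. The authors deposited the signal intensity of each target as BeadStudio wrote it, without background correction or normalization and with the probes of a target combined, so that probes cannot be compared. Deposited beside it were the SE over beads (also an intensity), how many beads were read, and a detection p-value. For combined targets this p does not follow the signal strictly, as STAU1 was undetected on control IP 1. The genome build is not given in the sources used here, and no coordinates are printed.

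The steps that the methods name were rebuilt in R (4.3.3), using mgcv (1.9.3) and limma (3.58.1). Plots were made in matplotlib (3.10.9) under Python (3.11.15). As background of an array, the median over the 200 targets whose detection p lay nearest to 0.5 was used. The transformation used the SD between beads, fitted over 500 bins without the lowest 33.3% of signals, and acts as log2 of the signal over background plus 117 to 161. A monotone spline with 10 knots mapped each array on control IP 3, the array nearest to the mean of all. The software of the methods was not used here. Groups were compared by lmFit and eBayes with Benjamini-Hochberg adjustment over 37879 targets, at 0.05. No filter was applied. The chain was tested on simulated arrays that all lay with their groups, so arrays like those numbered 2 were not covered.

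No source used here says that replicate numbers pair the arrays, so the main comparison had no block. The alternatives were neqc, quantile normalization, no between-array normalization, no background correction, log2 of the signals, another constant term, a detection filter, eBayes with trend, the methods' t-test, the replicate block, and arrays left out. Members, lists and tests were chosen with earlier results of these data known. Partners were named if they passed, if their groups did not overlap on arrays where they were all detected, or if they were among the 3 highest or lowest; others named were added after their values were seen. Current symbols came from RefSeq (GRCh38.p14).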

Additional observations from a re-analysis of the deposited data

How the results depend on the processing

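The signs of all 4 subunits and of both SPC24 differences held under every alternative run. SPC25, NDC80 and NUF2 passed under none of 17 (lowest adjusted p = 0.0638, 0.237 and 0.260 from limma). SPC24 passed without between-array normalization, where limma gave every target the same spread (log2 fold change 0.97, adjusted p = 0.00200), and without the arrays numbered 2 (2.16, adjusted p = 0.0148). In the first of these settings its SE was 0.21, against 0.75 in the main fit. That pass therefore did not use the spread of SPC24 itself. Under neqc, which estimates the background from the detection p-values, the background SD was 460 to 608. What made this SD large was not tested. NDC80 and NUF2 shrank under neqc to -0.22 and -0.05. With another constant term they were -0.39 and -0.14. Leaving out single arrays gave log2 fold changes of 0.51 to 1.60 for SPC24, -0.92 to -0.48 for SPC25, -0.76 to -0.35 for NDC80 and -0.53 to -0.28 for NUF2, and no background correction changed nothing, since the fitted constant absorbs it.

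Targets past the adjusted threshold numbered 1 with all arrays (3343 had an unadjusted p under 0.05 in limma). They numbered 2 under neqc, 407 without between-array normalization, 3 with another constant term, 0 with log2 signals, with the detection filter, with eBayes with trend and with each array left out, and 2364 without both arrays numbered 2. Targets enriched by the fold and p limits of the methods, with the p from limma, numbered 1 with all arrays. They numbered 3 under neqc and with the trend, 14 without between-array normalization, 0 to 124 with 1 array left out (124 without Stau1 IP 2, 10 without control IP 2) and 239 without both arrays. The cause of these differences was not tested.

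With the replicate block, 0 targets passed and 0 were enriched, and SPC24 had 0.94 (adjusted p = 0.954 from limma). Deviations of same-numbered arrays correlated at -0.45, -0.78 and -0.38, and 0 of 3 control IPs correlated best with their own number. Since both arrays numbered 2 lay toward the other group, this check cannot tell whether the numbers pair the arrays. The number of arrays limits the precision throughout.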
